A study of Mus musculus with 48 samples.

Results

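In whole mouse kidneys after subtotal nephrectomy, 10 genes linked to myofibroblasts or to platelet-derived growth factor (PDGF) signalling were followed. They were Acta2, Tagln, Cnn1, Pdgfra, Pdgfrb, Pdgfa, Pdgfb, Postn, Fn1 and Thy1. These 10 are among 13174 genes tested, and each is read by its single-symbol probe set with the highest mean over the 48 arrays. Subtotal nephrectomy (Nx) removes most of the renal mass, and sham-operated mice were the controls. The mouse strains were FVB, which the series describes as predisposed to lesions after this surgery, and C57BL/6 (written B6), described as not predisposed. Kidneys were taken 2, 28 or 53 days after surgery, and all mice were 9 weeks old when operated. This gives 12 groups of 4 mice: FVB Nx, FVB sham, B6 Nx and B6 sham at each day, with 1 array per mouse. No transgene, deletion or drug is named for any group. The question was how far the response to loss of renal mass differs between the strains over time.

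Myofibroblasts are cells that lay down matrix in injured tissue and carry contractile proteins of the smooth muscle kind. In kidney they arise largely from interstitial fibroblasts and pericytes, which bear PDGF receptors. PDGF ligands made by epithelium, endothelium, platelets and macrophages drive these cells to divide and migrate, and PDGFR-beta is also the receptor of mesangial cells in the glomerulus. The arterial wall of a normal kidney makes the same contractile proteins, so a transcript of whole kidney does not say which cell it came from.

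Surgery raised most of these genes. Of 60 comparisons of a gene with its sham group (10 genes, 2 strains, 3 days), 44 passed an adjusted p of 0.05 as higher, none passed as lower and 16 did not pass. Acta2, Tagln, Pdgfrb, Postn and Fn1 rose in all 6 strain and day groups with all arrays in the fit. In FVB kidneys 9 of the 10 genes rose at day 2, 6 at day 28 and 9 at day 53, where 24.8%, 7.35% and 25.9% of all genes tested rose. In B6 kidneys 7, 7 and 6 rose, against 20.2%, 9.85% and 8.03% of all genes. Lower calls made up 30.0%, 8.81% and 27.8% of all genes in FVB and 24.4%, 9.14% and 6.68% in B6. All 4 Nx values lay above all 4 sham values for 8, 6 and 8 of the 10 genes in FVB, as for 20.2%, 9.20% and 22.2% of all genes, and for 9, 6 and 8 in B6, as for 18.2%, 9.86% and 11.3%. The B6 counts include Cnn1, whose lowest Nx values at days 2 and 53 lay only just above sham, near the lowest deposited value. Over the 10 genes, the median difference from sham on the log2 scale was 1.44, 0.79 and 1.51 in FVB and 1.15, 1.01 and 1.13 in B6. The median over all genes lay between -0.03 and -0.01 in these 6 comparisons. All values are differences on the deposited log2 scale, tested with limma, and each p was adjusted (Benjamini-Hochberg) across the 13174 genes of its contrast. In a bulk sample, more cells of a type and more RNA per cell cannot be told apart, nor can fewer cells and less RNA.

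**Figure D1:**
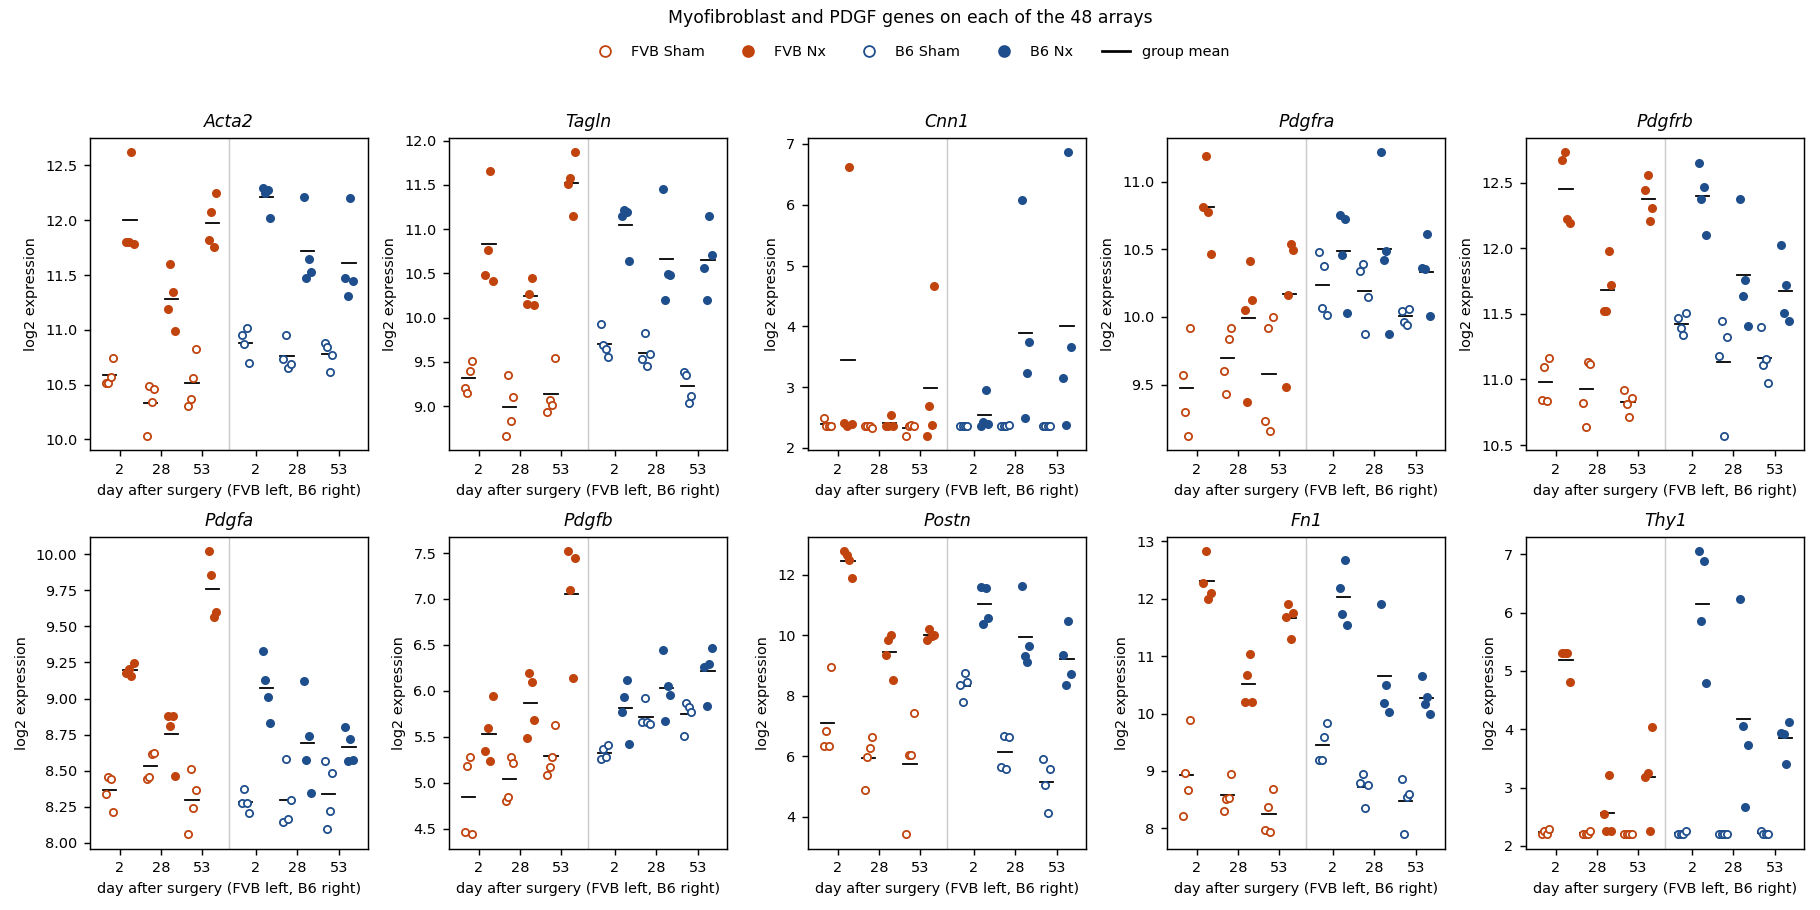
Log2 expression (vertical axes) of the 10 genes on each of the 48 arrays, by day after surgery (horizontal axes), with FVB on the left and B6 on the right of each panel; open points are sham mice, filled points Nx mice, and bars mark group means. For Acta2 the Nx values run from 10.99 to 12.62 and the sham values from 10.03 to 11.01, and Cnn1 stands above 6 in 3 mice only.

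Some facts of the whole series touch all of these results. Transcripts of pancreatic enzymes, which a kidney does not make, had a mean over 17 genes above 5 on 18 of the 48 arrays, 16 of them Nx arrays. On Nx arrays that mean ran from 2.95 to 14.83. Markers of skeletal muscle were high on 3 arrays, FVB Nx at day 53 mouse 7 (8.22) and mouse 8 (5.53) and FVB Nx at day 28 mouse 3 (6.32). Markers of kidney tubule and podocyte identity fell in FVB Nx kidneys, 9 of 10 tested at day 2 and 9 of 10 at day 53. In B6 Nx kidneys 8 of 10 fell at day 2 and 3 of 10 at day 53. Over all genes 30.0% and 27.8% fell in FVB at days 2 and 53, and 24.4% and 6.68% in B6. The day 28 counts of these markers are not given here. Without the 18 arrays rich in pancreatic transcripts, 1 Nx array is left in each group of days 2 and 28 and 2 in each of day 53. The day 53 counts of genes that rose became 8 in FVB and 6 in B6, where 3604 and 865 of 13174 genes rose. With lone Nx arrays, counts were lower at day 2 in both strains, lower at day 28 in FVB and higher at day 28 in B6. Counts over all genes moved the same way at these days. Each lone array is then assumed to vary like the other groups. In B6 at day 28 the array left is that of mouse 3, and the differences from sham were then 1.82 for Tagln, 1.26 for Pdgfrb and 3.22 for Fn1.

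Acta2 encodes smooth muscle alpha-actin, the usual marker of a myofibroblast. Its gene lies at chr19:34240336-34255585 in GRCm38.p6. RefSeq promoter sequences (GRCm38.p6), which cover 250 bases before to 50 after a start, were held for 5 of the 10 genes: Acta2, Cnn1, Pdgfra, Pdgfa and Postn. They were searched on both strands for 3 elements known from myofibroblast genes: the CArG box bound by serum response factor, the MCAT element (CATTCC) bound by TEAD factors, and the SMAD element (CAGAC) used in TGF-beta responses. The CArG box was searched only in its strict form, CC and GG around a core of A and T alone, so boxes with another base in the core were not counted. None of the 7 promoters of these 5 genes held the strict form, which 1.63% of 32851 mouse promoters of this length hold. An MCAT element was found in the Acta2 promoter, as in 14.7% of all, and SMAD elements in those of Acta2, Cnn1, Pdgfra and Postn, as in 49.6% of all. The stretches below show the 4 matches that lie before the start, in capitals, because these genes moved after surgery; they run 5′ to 3′ on the strand of the gene. A match of letters is a description and says nothing of binding.
Acta2 SMAD element, chr19:34255592-34255620, minus strand: cactagcccagtGTCTGggcatttgagca
Acta2 MCAT element, chr19:34255502-34255531, minus strand: gagcagaacagaGGAATGcagtggaagaga
Pdgfra SMAD element, chr5:75152093-75152121, plus strand: gttgttgttgaaGTCTGggggttgggact
Postn SMAD element, chr3:54359064-54359092, plus strand: ctggctcagagcCAGACtttagctttgga
The SMAD match of Acta2 begins 235 bases before the start and the MCAT match 146 bases before it, where the annotated gene span already covers the sequence. The match of Pdgfra begins 146 bases before its start, also inside the annotated span, and that of Postn 191 bases before.

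In FVB kidneys at day 2, Acta2 read 11.78, 11.80, 11.80 and 12.62 after Nx and 10.52, 10.52, 10.57 and 10.74 after sham surgery. At day 28 the Nx mice read 10.99, 11.19, 11.34 and 11.60 and the sham mice 10.03, 10.34, 10.46 and 10.49. At day 53 they read 11.76, 11.82, 12.08 and 12.25 against 10.30, 10.37, 10.56 and 10.82. Every Nx value stood above every sham value at each day. The differences were 1.42 ± 0.17 (SE; 2.67-fold, adjusted p = 5.04e-09), 0.95 ± 0.17 (1.93-fold, adjusted p = 9.66e-05) and 1.46 ± 0.17 (2.75-fold, adjusted p = 2.41e-09). The B6 Nx mice read 12.02, 12.25, 12.28 and 12.30 at day 2, where the sham mice lay between 10.70 and 11.01. B6 Nx mice at day 28 read 11.48, 11.53, 11.64 and 12.21 and at day 53 11.31, 11.45, 11.47 and 12.20, where 1 mouse stood above the other 3 each time, and the sham mice lay between 10.62 and 10.95. The B6 groups did not overlap at any day either. The B6 differences were 1.33, 0.96 and 0.83 (SE 0.17 each, adjusted p = 4.3e-08, 7.34e-05 and 0.000578). A further Acta2 probe set passed in none of the 6 comparisons (differences of 0.06 to 0.50), and the mean of both Acta2 probe sets gave 0.83 in FVB at day 53 (adjusted p = 8.47e-05).

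Tagln encodes transgelin (SM22-alpha), an actin-binding protein of smooth muscle (chr9:45929628-45936058). FVB Nx mice at day 53 read 11.14, 11.51, 11.57 and 11.87, and their shams 8.94, 9.02, 9.07 and 9.54. This group had the highest Tagln mean, with values that overlap those of other Nx groups, and stood 5.21-fold over sham (2.38 ± 0.22, adjusted p = 9.15e-12). FVB Nx mice read 10.41, 10.49, 10.76 and 11.65 at day 2 and 10.14, 10.15, 10.27 and 10.45 at day 28. They were 1.51 ± 0.22 and 1.26 ± 0.22 above shams that lay between 8.66 and 9.51 (adjusted p = 2.4e-07 and 6.39e-05). B6 Nx mice read 10.64, 11.15, 11.19 and 11.22 at day 2, 10.20, 10.49, 10.49 and 11.45 at day 28, and 10.20, 10.56, 10.71 and 11.15 at day 53. The B6 shams lay between 9.04 and 9.93, so that no Nx value of either strain fell among them. The B6 differences were 1.35, 1.06 and 1.43 (SE 0.22 each, adjusted p = 3.77e-06, 0.000536 and 1.15e-05). With only its own arrays the Tagln call of B6 at day 28 was lost (adjusted p = 0.0587).

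Cnn1 encodes calponin 1, an actin-binding protein of differentiated smooth muscle (chr9:22099221-22109221), and it behaved otherwise. All 24 sham mice read between 2.20 and 2.49, near the lowest value of the table, 2.20. FVB Nx mice at day 2 read 2.36, 2.39, 2.42 and 6.62, and those at day 53 2.20, 2.37, 2.70 and 4.66. B6 Nx mice read 2.50, 3.24, 3.74 and 6.07 at day 28 and 2.37, 3.15, 3.66 and 6.86 at day 53. In each of these 4 groups 1 mouse stood far above the rest, and the other 3 read lower, up to 3.74 in B6 and 2.70 in FVB. In B6 all 4 Nx values lay above the 4 shams of the same day at each of the 3 days, but barely so at days 2 and 53. The lowest B6 Nx value was 2.3690 at day 2 and 2.3744 at day 53, and the highest sham read 2.3673 at both. These gaps lie close to the lowest value of the table. In FVB the groups overlapped at each day. None of the 6 comparisons passed. The differences from sham ran from 0.06 to 1.65 with an SE of 0.69, and the adjusted p-values from 0.105 to 1. The FVB day 2 difference of 1.06 became -0.0028 without mouse 4. Without the arrays rich in pancreatic transcripts Cnn1 passed in B6 at day 28 (adjusted p = 0.00513), where the only Nx array left was that of mouse 3, at 6.07, and at day 53 (adjusted p = 0.0427), with mice 2 and 4 left.

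The mice with high Cnn1 also had a high mean over other contractile genes, though not a high value in each of them. FVB Nx day 2 mouse 4, B6 Nx day 28 mouse 3, B6 Nx day 53 mouse 4 and FVB Nx day 53 mouse 8 each had the highest Acta2, Tagln and Cnn1 of their group. Their mean over 21 other contractile genes was 9.62, 9.22, 9.13 and 9.17, where the medians of their groups were 8.75, 8.52, 8.51 and 8.86. Actg2, the gamma-actin of visceral smooth muscle, read 9.49 in FVB Nx day 2 mouse 4 and 5.02 to 5.64 in the other 3 mice of that group. In B6 it read 7.50 in day 28 mouse 3 (others 3.20 to 4.90) and 7.81 in day 53 mouse 4 (others 2.86 to 4.48). Myh11, the smooth muscle myosin heavy chain, read 9.87, 8.99 and 9.42 in these 3 mice, against at most 7.65, 7.96 and 8.09 in the others of their groups. In FVB Nx day 53 mouse 8, Actg2 read 5.72 (others 3.44 to 5.08), but Synpo2 read 5.13, below the 5.42 of mouse 4. Pancreatic transcripts did not mark the mice with high Cnn1 alike: the mean was 14.09 in FVB Nx day 2 mouse 4 but 3.07, 3.13 and 4.23 in the other 3. B6 Nx day 28 mouse 3 was the highest of its group in all 10 genes, and its macrophage markers averaged 9.73 against 7.67 to 7.94 in the other 3 mice of that group, which all carried pancreatic transcripts (12.46 to 12.78). The part of these differences in the group results was not tested.

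**Figure D2:**
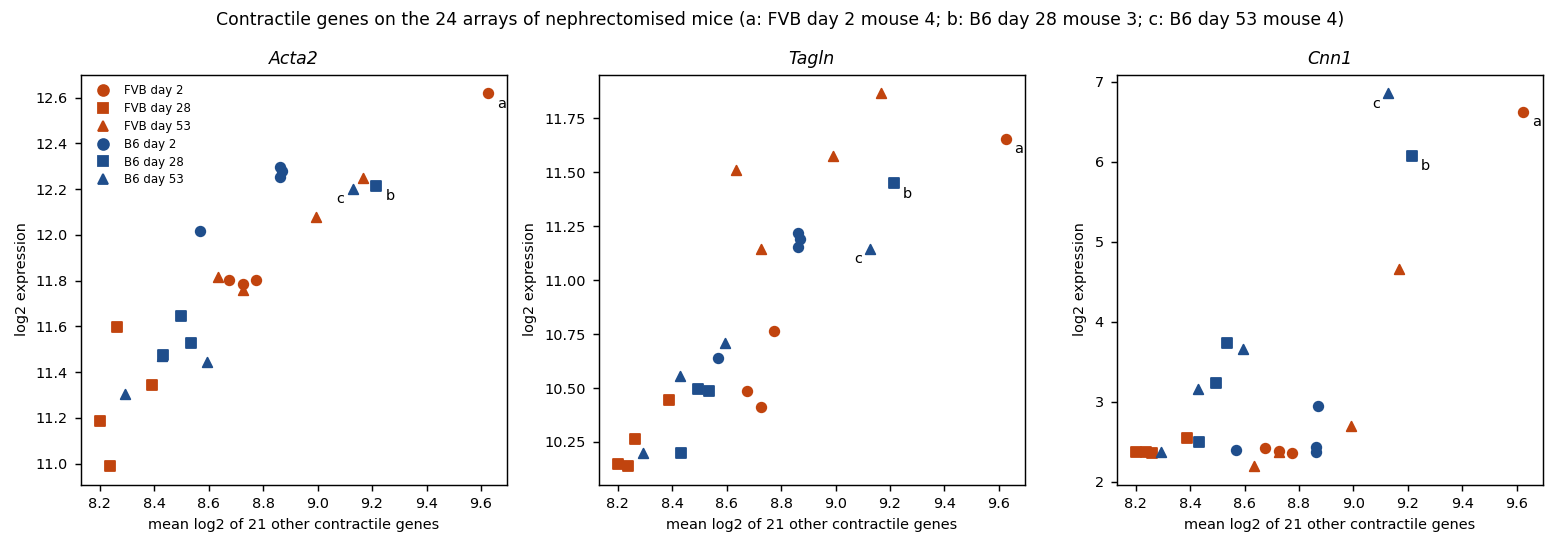
Log2 expression (vertical axes) of Acta2, Tagln and Cnn1 on the 24 Nx arrays against the mean log2 value of 21 other contractile genes (horizontal axes); colours mark strain and symbols the day. The mice marked a, b and c have Cnn1 values of 6.62, 6.07 and 6.86, above every other Nx mouse.

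The receptors had different counts of calls, 6 of 6 for Pdgfrb and 2 of 6 for Pdgfra. Pdgfrb, the receptor of PDGF-B and PDGF-D on pericytes, fibroblasts and mesangial cells (chr18:61045127-61085067), rose in every strain and day group. FVB Nx mice read 12.20, 12.22, 12.68 and 12.73 at day 2, 11.52, 11.52, 11.72 and 11.98 at day 28, and 12.21, 12.31, 12.45 and 12.56 at day 53, and all 12 FVB shams lay between 10.64 and 11.16. The FVB differences were 1.47, 0.76 and 1.55 (SE 0.17 each, adjusted p = 1.86e-09, 0.00133 and 4.87e-10), 2.78-fold, 1.69-fold and 2.94-fold. The Pdgfrb call of FVB at day 28 was lost without the arrays rich in pancreatic transcripts (adjusted p = 0.127). B6 Nx mice read 12.10, 12.38, 12.47 and 12.65 at day 2, 11.41, 11.64, 11.76 and 12.38 at day 28, and 11.44, 11.51, 11.72 and 12.03 at day 53. The B6 shams lay between 10.57 and 11.51, and only at day 28 did an Nx value fall among its shams. The B6 differences were 0.97, 0.67 and 0.51 (SE 0.17 each, adjusted p = 1.04e-05, 0.00425 and 0.0336). The day 28 call was lost without mouse 3 (adjusted p = 0.0571), and the day 53 call without mouse 1 (0.167) or mouse 4 (0.0694) of the Nx group and without sham mouse 3, 5 or 6 (at most 0.109).

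Pdgfra, the receptor of PDGF-A and PDGF-C on fibroblasts (chr5:75151322-75198206), rose in FVB at days 2 and 53. At day 2 the FVB Nx mice read 10.47, 10.78, 10.82 and 11.19 and the sham mice 9.12, 9.30, 9.57 and 9.92. The groups were apart by 1.33 ± 0.24 (2.52-fold, adjusted p = 1.01e-05). At day 53 FVB Nx mice read 9.48, 10.16, 10.50 and 10.54 and shams 9.16, 9.23, 9.92 and 10.00, which overlap (0.59 ± 0.24, adjusted p = 0.0344). That call did not hold in either of the other 2 Pdgfra probe sets (differences of -0.05 and 0.08) or without any 1 of Nx mice 4, 7 and 8 or sham mice 1 and 5 (adjusted p up to 0.14). The other probe sets did rise in FVB at day 2, by 0.66 and 0.50 (adjusted p = 0.000677 and 0.00926). The lower of these 2 averaged 2.67 over the 48 arrays and the other 5.46, against 10.12 for the one used. FVB at day 28 (0.29) and the 3 B6 comparisons (0.26, 0.31 and 0.33, SE 0.24 each) did not pass, and their Nx and sham values overlapped. In B6 the 95% intervals of these differences reached from -0.23 to 0.74 at day 2 and from -0.16 to 0.82 at day 53.

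Both ligands rose most in FVB at day 53. Pdgfa, the A chain (chr5:138976014-139000792), read 9.56, 9.60, 9.86 and 10.02 in FVB Nx mice at day 53 and 8.06, 8.24, 8.37 and 8.51 in their shams. No other group reached these values. The difference was 1.47 ± 0.13 (2.76-fold, adjusted p = 2.51e-12). At day 2 the FVB Nx mice read 9.16, 9.18, 9.20 and 9.25 and the B6 Nx mice 8.83, 9.01, 9.13 and 9.33, both above all their shams (8.21 to 8.46), by 0.83 and 0.79 (SE 0.13, adjusted p = 7.32e-07 and 3.23e-06). At day 28 FVB Nx mice read 8.46, 8.81, 8.88 and 8.88 and their shams 8.45 to 8.62, a difference of 0.22 that did not pass (adjusted p = 0.262). B6 Nx mice at day 28 read 8.34, 8.57, 8.74 and 9.12 against shams at 8.14 to 8.58, which overlap (0.40, adjusted p = 0.0242), and the call was lost without Nx mouse 3 (adjusted p = 0.204), Nx mouse 5 (0.0506), sham mouse 1 (0.08) or sham mouse 5 (0.0835). B6 Nx mice at day 53 read 8.57, 8.58, 8.72 and 8.80 against 8.10, 8.22, 8.49 and 8.56. That difference of 0.33 did not pass (adjusted p = 0.0833) although the groups were apart, and another Pdgfa probe set gave 0.45 (adjusted p = 0.0488).

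Pdgfb, the B chain and the main ligand of PDGFR-beta (chr15:79995865-80024614), read 6.14, 7.10, 7.45 and 7.52 in FVB Nx mice at day 53 and 5.08, 5.17, 5.28 and 5.63 in their shams. The values did not overlap, and the difference was 1.76 ± 0.22 (3.39-fold, adjusted p = 1.47e-08). FVB Nx mice read 5.24, 5.35, 5.59 and 5.94 at day 2 and 5.48, 5.69, 6.10 and 6.20 at day 28. They were 0.69 and 0.83 above shams at 4.44 to 5.28 (adjusted p = 0.00867 and 0.00759), and at day 2 the lowest Nx value lay within the sham range. The Pdgfb calls of days 2 and 28 were lost without the arrays rich in pancreatic transcripts (adjusted p = 0.159 and 0.395), and that of day 2 with only its own arrays (0.0601). B6 Nx mice read 5.43, 5.76, 5.94 and 6.12 at day 2, 5.67, 5.96, 6.05 and 6.45 at day 28, and 5.84, 6.26, 6.29 and 6.47 at day 53. The B6 differences of 0.48, 0.32 and 0.47 (SE 0.22 each) did not pass (adjusted p = 0.0771, 0.365 and 0.167), although all 4 Nx values lay above the shams at day 2. A further Pdgfb probe set lay near the lowest value and passed only in FVB at day 53 among the 6 comparisons (0.18, adjusted p = 0.000736), and the mean of both gave 0.97 there (adjusted p = 1.51e-08).

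**Figure D3:**
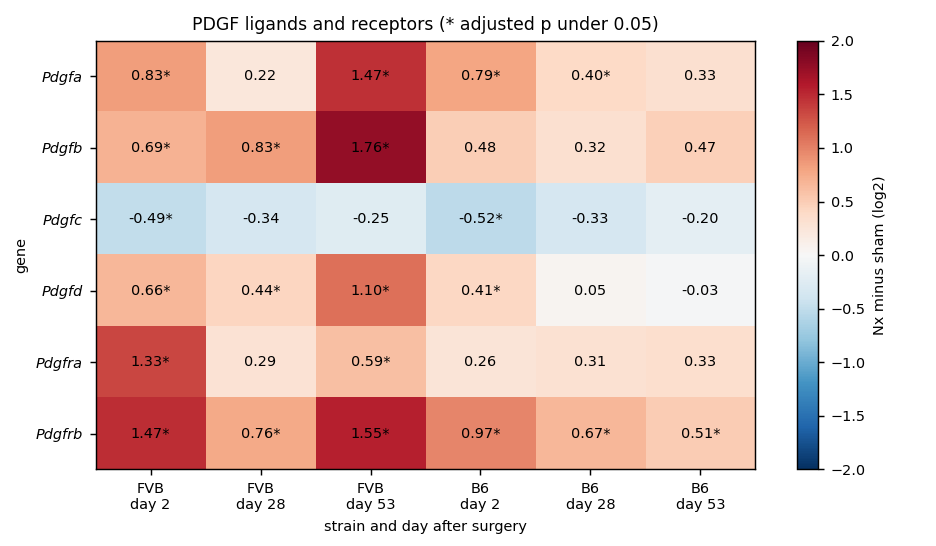
Difference between Nx and sham kidneys (log2, colour and printed value) for the PDGF ligand and receptor genes (rows) in each strain and day (columns); an asterisk marks an adjusted p under 0.05. Pdgfb, Pdgfa, Pdgfd and Pdgfrb exceed 1 in FVB at day 53, and Pdgfc is below 0 in all 6 columns.

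The other PDGF ligands went different ways. Pdgfd, whose product binds PDGFR-beta, rose in FVB by 0.66, 0.44 and 1.10 at days 2, 28 and 53 (adjusted p = 2.07e-06, 0.00374 and 4.07e-11). In B6 it rose by 0.41 at day 2 (adjusted p = 0.00202), and read 0.05 and -0.03 from sham at days 28 and 53. Pdgfc, a ligand of PDGFR-alpha, fell by 0.49 in FVB and by 0.52 in B6 at day 2 (adjusted p = 0.00168 and 0.00107) and did not pass later. Plat, the protease tPA that can activate PDGF-C, fell by 0.82 in FVB and by 0.64 in B6 at day 28 (adjusted p = 9.21e-05 and 0.0014) and by 0.54 in B6 at day 53 (0.00864). Of 24 other genes of PDGF signalling tested (26 listed), 13 rose and 4 fell in FVB at day 53, 11 and 5 at day 2, and 3 and 2 at day 28. In B6 the counts were 7 and 6, 3 and 3, and 1 and 3 at days 2, 28 and 53. Over all genes 25.9% rose and 27.8% fell in FVB at day 53, 24.8% and 30.0% at day 2 and 7.35% and 8.81% at day 28, and in B6 20.2% and 24.4%, 9.85% and 9.14%, and 8.03% and 6.68%. Several of these counts, such as the 6 of 24 that fell in B6 at day 2, are near the background. The kinase Src (0.56, adjusted p = 1.06e-05) and the adaptor Nck1 (0.58, adjusted p = 2.43e-06) rose in FVB at day 53. The list's median difference was 0.24 in FVB at day 53, against -0.01 over all genes. Of the 12 platelet markers listed, 2 could be tested: Pf4 rose in all 6 comparisons (2.45 to 4.41) and Ppbp passed in none, and their part in the Pdgfb result was not tested.

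Postn encodes periostin, a matrix protein made by activated fibroblasts (chr3:54359267-54391041), and it had the widest differences from sham of the 10 genes in 5 of the 6 groups; in B6 at day 2 Thy1 was wider. FVB Nx mice at day 2 read 11.89, 12.48, 12.65 and 12.79 and their shams 6.33, 6.35, 6.83 and 8.96. The difference was 5.34 ± 0.60 (40.4-fold, adjusted p = 1.15e-09), and 5.95 without sham mouse 5, the Postn value of 8.96. At day 28 FVB Nx mice read 8.52, 9.35, 9.86 and 10.00 against 4.88, 5.97, 6.26 and 6.63, and at day 53 9.85, 9.98, 10.00 and 10.21 against 3.42, 6.03, 6.05 and 7.43. No Nx value fell within the sham range, and the differences were 3.50 and 4.28 (SE 0.60, adjusted p = 5.25e-05 and 1.2e-07). Without sham mouse 1 of day 53, which read 3.42, the latter was 3.51. B6 Nx mice read 10.39, 10.56, 11.58 and 11.60 at day 2, 9.11, 9.32, 9.64 and 11.65 at day 28, and 8.35, 8.73, 9.36 and 10.46 at day 53. They stood 2.69, 3.79 and 4.06 above sham (adjusted p = 0.000331, 1.37e-05 and 6.49e-06). Without the arrays rich in pancreatic transcripts the Postn calls of B6 at day 2 (2.05, adjusted p = 0.18) and FVB at day 28 (adjusted p = 0.0733) were lost, and the B6 day 28 difference was 5.35. The shams themselves were high at day 2: B6 shams read 7.78, 8.37, 8.45 and 8.75 at day 2, 5.59 to 6.68 at day 28 and 4.11 to 5.91 at day 53. In a contrast chosen after the values were seen, sham kidneys at day 2 exceeded those of the later days by 2.69 ± 0.52 in B6 (6.45-fold, adjusted p = 0.00381; 0.493% of all genes were higher) and by 1.28 ± 0.52 in FVB, which did not pass (adjusted p = 0.19; 2.11% of all genes were higher). The day 2 differences from sham are set against that raised level.

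Fn1 encodes fibronectin (chr1:71585473-71653280). FVB Nx mice read 12.002, 12.10, 12.28 and 12.83 at day 2, 10.19, 10.19, 10.67 and 11.03 at day 28, and 11.30, 11.69, 11.75 and 11.91 at day 53. All lay above the 12 FVB shams (7.94 to 9.89). The differences were 3.37, 1.95 and 3.42 (SE 0.31 each, adjusted p = 1.14e-11, 1.72e-05 and 5.82e-12), which is 10.3-fold, 3.86-fold and 10.7-fold. B6 Nx mice read 11.54, 11.74, 12.19 and 12.67 at day 2, 10.03, 10.19, 10.50 and 11.90 at day 28, and 10.00, 10.17, 10.29 and 10.65 at day 53, above shams at 7.89 to 9.83. The B6 differences were 2.59, 1.94 and 1.80 (adjusted p = 9.8e-09, 1.42e-05 and 5.89e-05). A second Fn1 probe set also passed in all 6 comparisons (1.52 to 4.37). Fn1 is made by macrophages as well as fibroblasts. At day 53, 19 of 19 macrophage markers rose in FVB and 15 of 19 in B6, where 25.9% and 8.03% of all genes rose. Their mean on FVB Nx arrays was 9.57 to 10.61 at day 2, 7.29 to 8.41 at day 28 and 8.97 to 9.92 at day 53. The FVB shams had means of 5.78 to 6.98, 5.38 to 6.01 and 5.19 to 5.56. The part of macrophages in the Fn1 result was not tested.

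Thy1 encodes a surface protein of fibroblasts and T cells (chr9:44043384-44048579). All 24 shams read between 2.20 and 2.29, at or near the lowest value of the table, so the folds are lower bounds, taken against the filter value of 2.28 where all 4 shams lay at or under it. B6 Nx mice at day 2 read 4.79, 5.86, 6.89 and 7.06, at least 14.6-fold higher than sham (adjusted p = 4.06e-10). At day 28 they read 2.67, 3.73, 4.05 and 6.23 (at least 3.71-fold, adjusted p = 0.000472) and at day 53 3.41, 3.91, 3.94 and 4.13 (at least 2.97-fold, adjusted p = 0.00408). Without mouse 3 the fitted Thy1 difference of B6 at day 28 went from 1.97 to 1.28 (adjusted p = 0.00792), and a fit of those 8 arrays alone did not call it (0.126). FVB Nx mice at day 2 read 4.81, 5.31, 5.31 and 5.31, a rise of 2.95 ± 0.41 (adjusted p = 8.32e-08). At day 28 the FVB mice read 2.26, 2.26, 2.54 and 3.21, which did not pass (adjusted p = 0.649), and at day 53 2.26, 3.19, 3.25 and 4.03 (at least 1.87-fold, adjusted p = 0.0394). The day 53 call in FVB was lost without Nx mouse 4, 8 or 10 or any of the 4 sham mice (adjusted p up to 0.179). Of 7 T cell markers tested (14 listed), limma called 0 at day 2 in either strain (0 at an unadjusted p under 0.05). Their mean at day 2 was 2.62 to 2.75 on B6 Nx arrays against 2.61 to 2.66 on shams, and 2.62 to 3.20 on FVB Nx arrays against 2.64 to 2.71. The highest FVB value was that of mouse 2, where Cd3d read 4.92 and Cd3g 3.66, above all 4 shams. The part of T cells in the Thy1 result was not tested. At day 53, 3 of the 7 passed in B6, where 8.03% of all genes rose and 6.68% fell. In FVB 2 of the 7 passed, where 25.9% of all genes rose and 27.8% fell, so that count is near the background. In B6 at day 28, where Cd3d alone passed (1.47, adjusted p = 0.0177), it read 6.60 in mouse 3, the mouse with the highest Thy1, and 2.83 to 4.37 in the others.

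**Figure D4:**
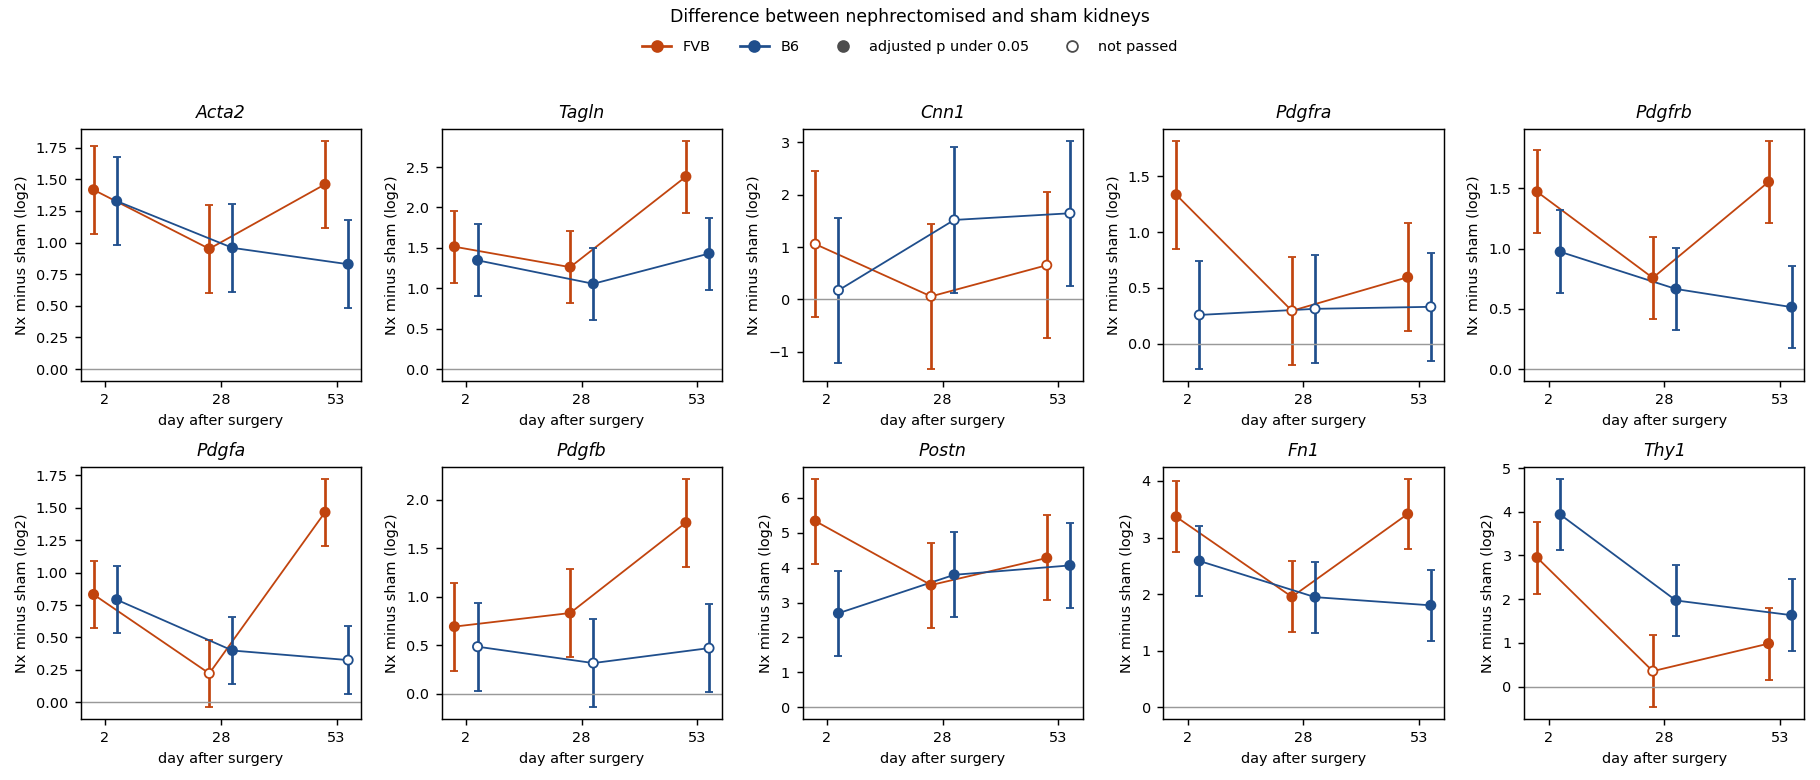
Difference between Nx and sham kidneys (log2, vertical axes) with its 95% interval by day after surgery (horizontal axes, days not to scale) for each gene; filled points passed an adjusted p of 0.05. FVB values at day 53 lie at 1.46 for Acta2, 2.38 for Tagln, 1.55 for Pdgfrb and 3.42 for Fn1, with B6 at 0.83, 1.43, 0.51 and 1.80.

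The strains parted at day 53. The difference of the Nx effect, FVB minus B6, passed as higher in FVB for 6 of the 10 genes, where 14.2% of all genes passed in that direction and 14.9% in the other. Fn1 differed by 1.62 ± 0.44 (3.06-fold, adjusted p = 0.00446), Pdgfb by 1.29 ± 0.32 (2.45-fold, adjusted p = 0.0018) and Pdgfa by 1.14 ± 0.18 (2.20-fold, adjusted p = 8.46e-06). Pdgfrb differed by 1.04 ± 0.24 (2.06-fold, adjusted p = 0.000989) and Tagln by 0.95 ± 0.31 (1.93-fold, adjusted p = 0.0181). Acta2 differed by 0.63 ± 0.24 (adjusted p = 0.0449), which is close to the threshold: a median shift of the arrays gave an adjusted p of 0.0908, and it was lost when any 1 of 11 of the 16 arrays was left out: B6 Nx mice 1, 2 and 7, FVB Nx mice 4 and 8, B6 sham mice 1, 3 and 6, and FVB sham mice 1, 3 and 5 (adjusted p from 0.0563 to 0.115). Tagln lost its call without B6 Nx mouse 2 (0.0582) and without no other single array. The difference for Postn was 0.21 (95% interval -1.51 to 1.94), for Pdgfra 0.27 (-0.42 to 0.95), for Cnn1 -0.99 (-2.96 to 0.97) and for Thy1 -0.65 (-1.81 to 0.51). These 4 intervals include 0.

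**Figure D5:**
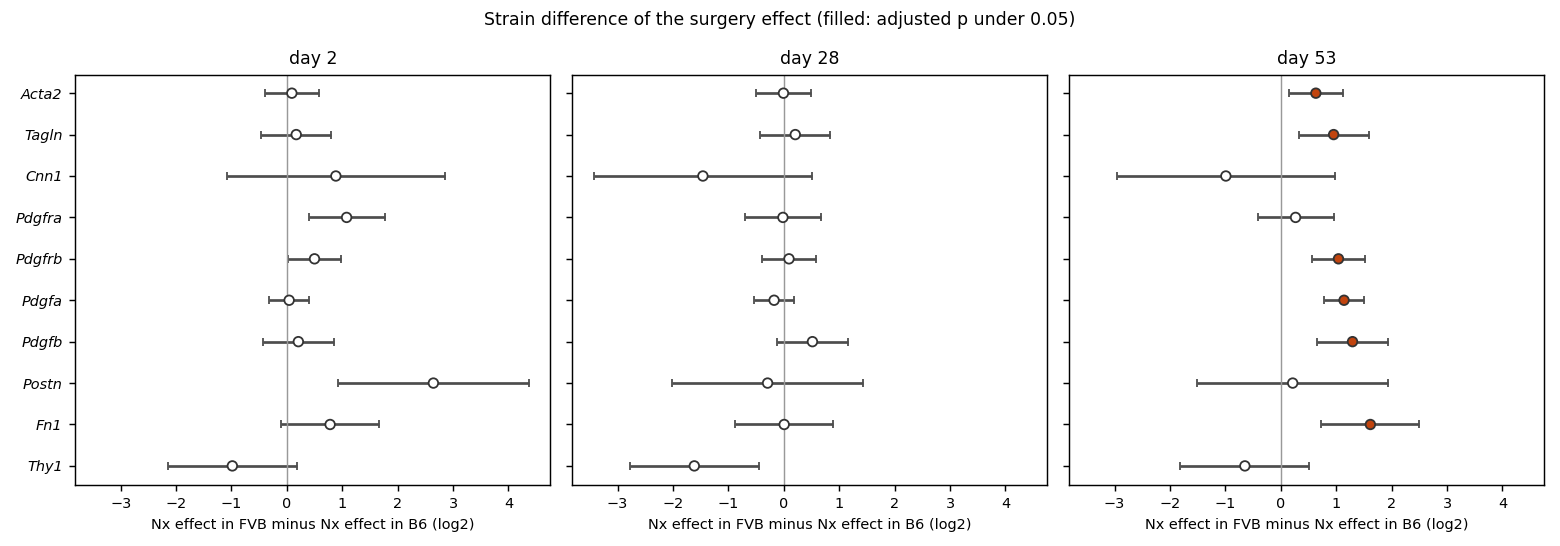
Nx effect in FVB minus Nx effect in B6 (log2, horizontal axes) with its 95% interval for each gene (vertical axis) at day 2, day 28 and day 53; filled points passed an adjusted p of 0.05. All 6 filled points are at day 53, between 0.63 for Acta2 and 1.62 for Fn1.

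At the earlier days no gene of the 10 passed with all arrays. At day 2 limma called 0 of 10 (3 at an unadjusted p under 0.05), where 2.27% of all genes passed as higher in FVB and 2.14% as lower. The widest were Postn (2.64 ± 0.85, 95% interval 0.92 to 4.37, adjusted p = 0.064) and Pdgfra (1.08 ± 0.34, 0.39 to 1.76, adjusted p = 0.0583). Both lie near the threshold: they passed without B6 Nx mouse 11, FVB Nx mouse 5 or FVB sham mouse 5 (adjusted p from 0.0167 to 0.0456), and Pdgfra also with array weights (0.0288) and as the mean of its probe sets (0.0375). At day 28 limma called 0 of 10 (1 at an unadjusted p under 0.05), where 0.0607% of all genes passed as higher and 0.0683% as lower. Thy1 was the widest there (-1.62 ± 0.58, -2.78 to -0.45, adjusted p = 0.678). Without the arrays rich in pancreatic transcripts the Thy1 difference was -3.69, with 1 Nx array left in each strain, mouse 3 in B6. Acta2 (-0.01, -0.50 to 0.48) and Fn1 (0.01, -0.88 to 0.89) were near 0.

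The levels in the nephrectomised kidneys were also compared between strains, in a contrast chosen after the values were seen. FVB Nx against B6 Nx at day 53 passed as higher for Fn1 (1.39), Pdgfa (1.09), Tagln (0.87), Pdgfb (0.84) and Pdgfrb (0.70), 5 of 10 genes where 24.1% of all genes passed as higher. Acta2 did not pass (0.37, adjusted p = 0.0769). These Nx arrays also enter the difference of effects. Sham kidneys started from another level: over all days FVB shams read lower than B6 shams by 0.56 for Pdgfra (adjusted p = 0.00143), 0.54 for Pdgfb (0.000964), 0.36 for Tagln (0.0251), and 0.33 for both Acta2 (0.00815) and Pdgfrb (0.00823). These are 5 of the 10 genes, where 15.6% of all genes were lower in FVB, and the Tagln call was lost without FVB sham day 28 mouse 1 (0.052). At day 28 Thy1 was lower in FVB Nx than in B6 Nx kidneys by 1.60 (adjusted p = 0.00439; 8.34% of all genes were lower).

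Between days, the FVB effect dipped and returned for some genes. From day 2 to day 28 the Nx effect in FVB fell by 2.60 for Thy1 (adjusted p = 0.000851), 1.42 for Fn1 (0.0148), 1.04 for Pdgfra (0.0209), 0.71 for Pdgfrb (0.0248) and 0.61 for Pdgfa (0.0114), 5 of 10 genes where 12.5% of all genes fell. From day 28 to day 53 it rose by 1.47 for Fn1 (adjusted p = 0.0108), 1.24 for Pdgfa (2.55e-06), 1.12 for Tagln (0.00619), 0.93 for Pdgfb (0.0257) and 0.80 for Pdgfrb (0.0113), 5 of 10 genes where 13.7% of all genes rose. The 2 contrasts share the arrays of day 28. Without the arrays rich in pancreatic transcripts the falls of Fn1 (adjusted p = 0.0762), Pdgfra (0.234) and Pdgfa (0.299) were not called, and the rise of Pdgfb was 1.69 (0.00168). The fall of Pdgfrb was lost without any 1 of 8 arrays (Nx mice 1 and 2 and sham mice 1 and 4 of day 2, Nx mice 2 and 3 and sham mice 3 and 4 of day 28; adjusted p up to 0.0709). That of Pdgfra was lost without day 2 Nx mouse 2 or sham mouse 4 or day 28 Nx mouse 3 (up to 0.0668). The rise of Pdgfb was lost without day 28 Nx mouse 2 or 8 or sham mouse 3 or 4, or day 53 Nx mouse 8 or 10 or sham mouse 1 (up to 0.0727). In B6, Thy1 fell by 1.97 from day 2 to day 28 (adjusted p = 0.0236; 4.02% of all genes fell), a call lost without day 2 Nx mouse 5 or 11 or day 28 Nx mouse 5 or 9 (adjusted p up to 0.0934) and with only the arrays of the contrast (0.216). Without the arrays rich in pancreatic transcripts the direction of the Thy1 change turned, to 0.39 (adjusted p = 0.449), with 1 Nx array left at each day. From day 28 to day 53 limma called none of the 10 genes in B6 (0 at an unadjusted p under 0.05) and 0 of 13174 genes (405 at an unadjusted p under 0.05). Quantile normalisation and a median shift also gave 0 genes there, and no filter on low values gave 1. The 0 did not hold without the arrays rich in pancreatic transcripts, a fit with 1 Nx array left at day 28.

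The genes also differ in the order of their 12 group means. Acta2 was highest in B6 Nx at day 2 (12.21 ± 0.13, SD, n = 4), then FVB Nx at day 2 (12.002 ± 0.41) and day 53 (11.98 ± 0.23), and lowest in FVB sham at day 28 (10.33 ± 0.21). Tagln was highest in FVB Nx at day 53 (11.52 ± 0.30), as were Pdgfa (9.76 ± 0.22) and Pdgfb (7.05 ± 0.64). Pdgfra, Pdgfrb, Postn and Fn1 were highest in FVB Nx at day 2 (10.81 ± 0.30, 12.46 ± 0.29, 12.45 ± 0.40 and 12.30 ± 0.37). Thy1 was highest in B6 Nx at day 2 (6.15 ± 1.05) and Cnn1 in B6 Nx at day 53 (4.01 ± 1.97). In 105 of the 110 pairs of neighbours in these orders the 4 and 4 values overlapped. The 5 pairs that lay apart were FVB Nx day 53 above FVB Nx day 2 for Pdgfa, FVB Nx day 2 above B6 Nx day 2 and the latter above FVB Nx day 53 for Postn, and the step from the lowest Nx to the highest sham group for Tagln and Fn1.

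Further gene lists, here and in the next paragraph, cover the wider programs. Most genes named from them were picked by the smallest p in FVB at day 53, which favours a wider FVB value. Their strain differences are not given here, so the paired values are no test of one. Of 21 other contractile genes, 13 rose and 2 fell in FVB at day 2. The FVB counts were 7 and 1 at day 28 and 11 and 0 at day 53. In B6 they were 10 and 2, 9 and 2, and 9 and 1. The median differences were 0.87, 0.35 and 0.65 in FVB and 0.33, 0.42 and 0.52 in B6. Over all genes the shares that rose and fell in FVB were 24.8% and 30.0%, 7.35% and 8.81%, and 25.9% and 27.8%. In B6 these shares were 20.2% and 24.4%, 9.85% and 9.14%, and 8.03% and 6.68%. Actn1, an actin crosslinker, rose by 2.16 in FVB and by 0.72 in B6 at day 53, Tpm1 (tropomyosin) by 1.65 and 0.77, and Vcl (vinculin, a focal adhesion protein) by 1.16 and 0.30. Skeletal muscle can add to some of these transcripts, and 6 of 9 skeletal muscle markers rose in FVB at day 53. The FVB Nx mouse with the highest skeletal muscle mean, mouse 7 (8.22), had the lowest Acta2 and Tagln of its group, and mouse 8, the next highest (5.53), had the highest Acta2, Tagln and Cnn1. The part of skeletal muscle in these results was not tested. Of 16 regulators of smooth muscle and myofibroblast genes tested (18 listed), 8 rose and 1 fell in FVB at day 53 and 3 rose in B6. At that day 25.9% of all genes rose and 27.8% fell in FVB, and 8.03% rose in B6. Runx1 rose in all 6 comparisons (2.50 to 4.83), Mrtfb, a coactivator of serum response factor, by 1.00 in FVB and 0.40 in B6 at day 53, and Tead1, a factor that binds MCAT elements, by 0.79 in FVB at day 53 (adjusted p = 5.74e-09), with 0.11 in B6 (adjusted p = 0.535).

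Of 12 pericyte and mesangial markers tested (16 listed), 5 rose and 3 fell in FVB at day 53 and 1 rose and 1 fell in B6. Over all genes 25.9% rose and 27.8% fell in FVB at day 53, and 8.03% and 6.68% in B6, so the falls in FVB and both counts in B6 are near the background. Rgs5, a pericyte regulator of G protein signalling, rose in FVB by 0.85, 0.67 and 1.52 and passed at no day in B6 (0.29, 0.29 and 0.22). Mcam rose by 1.70 and Cd248 by 2.01 in FVB at day 53. Of 17 fibroblast markers tested (18 listed), 15, 12 and 16 rose in FVB and 13, 15 and 13 in B6, and none fell. Over all genes 24.8%, 7.35% and 25.9% rose in FVB and 20.2%, 9.85% and 8.03% in B6. The collagen gene Col1a1 rose by 5.93 in FVB and by 3.34 in B6 at day 53, Col3a1 by 4.58 and 2.99, and Col1a2 by 3.85 and 2.26. Of 17 partners of fibronectin and periostin tested (18 listed), 11 rose in FVB at day 53 and 4 in B6, and none fell. Lox, which crosslinks collagen, rose by 4.77 and 2.42, the integrin subunit Itgb1 by 1.08 in FVB (0.32 in B6, adjusted p = 0.0785), and the transglutaminase Tgm2 by 0.76 in FVB (adjusted p = 1 in B6). Of 18 endothelial markers, 7 fell and 1 rose in FVB at day 53, where 27.8% of all genes fell and 25.9% rose, and 3 fell and 1 rose in B6, where 6.68% fell and 8.03% rose. Of 6 mesothelial markers tested, 4 rose in FVB at day 2, where 24.8% of all genes rose. At day 53 1 of the 6 rose in FVB, which is not above the 25.9% of all genes. Of 7 adipose markers 4 rose in B6 at day 28 and 4 at day 53, where 9.85% and 8.03% of all genes rose. Of 4 nerve markers limma called 0 in the 6 comparisons (1 of the 24 values at an unadjusted p under 0.05).

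The genes whose 6 differences from sham lay nearest to those of each gene were named by the root mean square distance over the 6 comparisons, with no test. Nearest to Acta2 were Ecscr, Crlf2 and Flna (distances of 0.10 to 0.13 on the log2 scale), and to Tagln Svep1, Dock10 and Icam1 (0.14 to 0.19). Nearest to Pdgfrb were Itpripl2, Jpt1 and Apaf1 (0.08 to 0.10), to Pdgfra Zfhx4, Igtp and Sgce (0.11 each), to Pdgfa Coro1c, Slc7a1 and Map3k1 (0.10 to 0.11), and to Pdgfb Thsd4, Trim47 and Tmem43 (0.17 to 0.18). For Postn they were Mfap5, Lum and Ccl6 (0.36 to 0.55), for Fn1 Gask1b, Nckap1l and Akr1b8 (0.21 to 0.23), for Thy1 Rab7b, Kif20a and Cd84 (0.53 to 0.57), and for Cnn1 Cd3d, Sfrp2 and Synpo2 (0.30 to 0.38). None of the 6 Cnn1 differences passed, and the larger ones owe much to a single mouse each, so its nearest genes can reflect single arrays. Among the 10 genes themselves, Acta2 and Pdgfrb lay nearest to each other (0.24), then Pdgfa and Pdgfb (0.32). The 6 comparisons come from separate sets of mice, but all genes share the same arrays.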

How the data were processed

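RNA from frozen whole kidney was hybridised to Affymetrix mouse arrays, 1 per mouse, 4 mice in each of 12 groups. The deposited table holds log2 values of 45101 probe sets; per the submitters' processing notes MAS5 was used, in a role not given, and background correction, summarisation and normalisation are not given in the sources used here. The log2 scale was judged from the deposited values, which run from 2.20 to 16.18, with 32.1% at the lowest. Array medians lay between 3.17 and 3.44, and no 2 arrays were identical. Values were used as deposited. Because many values sit at the lowest value, a difference from it is a lower bound. Precision is limited by 4 arrays per group.

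Probe sets were named from the platform annotation (34958 with 1 symbol, 932 with several, 9211 not listed), and 64 control probe sets were left out. A probe set was kept where it passed the 40th percentile of all values (2.28) on at least 4 arrays, and of several kept probe sets the one highest on average stood for a gene, which left 13174 genes; all 10 members passed. Locations and promoters are from RefSeq, GRCm38.p6. limma 3.58.1 (R 4.3.3) fitted 12 group means over all 48 arrays (36 residual degrees of freedom, eBayes with intensity trend), and two-sided p-values were adjusted by Benjamini-Hochberg within each contrast, threshold 0.05. The fit was tested on simulated data. Each lower bound for Thy1 sets the Nx mean against the filter value.

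All 10 members are named. Of each other list up to 3 genes with the smallest p in FVB at day 53 are named, besides Pdgfc, Pdgfd and Plat. Actg2, Myh11 and Synpo2 were named after their values were seen. Members, lists and rules were chosen with earlier results of these data known. Alternatives were quantile normalisation, a median shift, no or a stricter filter, only the arrays of a comparison, mouse number as a block, array weights, no trend, the mean of a gene's probe sets, no arrays rich in pancreatic transcripts, and each mouse left out. Python 3.11.15 with pandas 2.3.3 and matplotlib 3.10.9 served for tables and plots.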

Additional observations from a re-analysis of the deposited data

Results flagged for a closer look

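In 13 of the 115 sets of 4 mice tested (1 gene in 1 group), 1 mouse stood far from the other 3 by its gap to the nearest, where chance gives about 1 in 20. In 5 further sets all values lay at or under the filter value. After Nx at day 2, mouse 4 of FVB was high in Acta2 (12.62) and Cnn1 (6.62), and mouse 9 of B6 was low in Acta2 (12.02) and Tagln (10.64). Mouse 5 of FVB Nx at day 2 was low in Thy1 (4.81), and mouse 8 of FVB Nx at day 28 was low in Pdgfa (8.46). Mouse 3 of B6 sham at day 28 was high in Pdgfb (5.92). The remaining 6 sets are of Cnn1 close to the lowest value of the table: 2.95 in B6 Nx day 2 mouse 5, 2.54 in FVB Nx day 28 mouse 7, 2.37 in B6 sham day 28 mouse 6, 2.36 in B6 sham day 53 mouse 1, 2.49 in FVB sham day 2 mouse 1 and 2.20 in FVB sham day 53 mouse 1.

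The Nx effect differed between FVB and B6 at day 53 by a test of the difference itself for 6 genes: 0.63 for Acta2, 0.95 for Tagln, 1.04 for Pdgfrb, 1.14 for Pdgfa, 1.29 for Pdgfb and 1.62 for Fn1, all larger in FVB.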

How the results depend on the processing

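Of 140 results (10 genes in 14 contrasts), 66 passed, 44 of them under every alternative run, and 22 lost the call in at least 1; 14 that had not passed did so in at least 1. Quantile normalisation, a stricter filter, array weights and no intensity trend removed no call. Leaving out 1 mouse removed the call of 12 results, leaving out the arrays rich in pancreatic transcripts 12, and fitting only the arrays of the comparison 10. Without the arrays rich in pancreatic transcripts the Thy1 effect in B6 changed from day 2 to day 28 by 0.39 and not -1.97. The FVB day 28 count was lower than 6 in that fit, which leaves 1 Nx array in each of these groups. With only its own arrays the B6 day 28 count was 3 and not 7. Over all 13174 genes, 411 and not 1297 were called higher in B6 at day 28 with only those arrays. Leaving out each mouse in turn gave 9 to 9, 6 to 6 and 7 to 8 genes in FVB, 7 to 8, 5 to 7 and 5 to 7 in B6, 4 to 8 strain differences (6 with all mice), 9 to 12 changes between days (11) and 4 to 5 sham differences (5). With mouse number as a replicate block the strain differences of Pdgfra and Postn at day 2 passed (adjusted p = 0.0451 and 0.0464), which made 8 strain differences, and no call was lost; the numbers are not known to pair mice (deviations of 10 same-numbered pairs correlated between -0.251 and 0.378, 5 of 10 over 0.1). After a median shift of the arrays the median of all genes was -0.21 in FVB at day 2, where it had been -0.03. Genes called higher and lower went from 3273 and 3948 to 2310 and 6409 there, from 3412 and 3663 to 2473 and 5872 in FVB at day 53, from 2655 and 3219 to 2002 and 5019 in B6 at day 2, and from 1874 and 1965 to 1343 and 2704 for the strain difference at day 53. Depth is unknown for arrays, and values at the lowest value have no order.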
